A study of Mus musculus with 2 samples.

Results

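*Cxcl9*, *Cxcl10*, *Cxcl11*, *Cxcl16*, *Cxcr3* and *Cxcr6* encode the CXC chemokines that draw T cells, and their receptors. They were found by gene symbol in both expression matrices, and they are 6 of 33696 genes. Their identifiers were ENSMUSG00000029417 (*Cxcl9*), ENSMUSG00000034855 (*Cxcl10*), ENSMUSG00000060183 (*Cxcl11*), ENSMUSG00000018920 (*Cxcl16*), ENSMUSG00000050232 (*Cxcr3*) and ENSMUSG00000048521 (*Cxcr6*). The study used single-cell RNA-seq of cells labelled CD45 positive from the thalamus of C57B6/J mice with cortical ablation injury (CAI), in which a piece of cortex is removed and the connected thalamus then becomes inflamed. One group received control Ab (normal rat IgG) and the other anti-CD9 Ab, which binds the tetraspanin CD9. Both were given at 1.0 µg/µl through a cannula from day 7 to day 19 after injury, and cells were collected on day 21. There was 1 library per group, and the methods describe equal numbers of cells of 4 mice pooled per thalamus sample, without restating this for the antibody groups, so antibody, mouse pool and library cannot be told apart.

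CXCR3 is the receptor of CXCL9, CXCL10 and CXCL11, chemokines that interferons induce in myeloid and glial cells and that guide effector T cells into inflamed tissue. CXCR6 is carried by resident memory, gamma-delta and other T cells and binds CXCL16, which is made as a membrane protein on myeloid cells and is shed by the proteases ADAM10 and ADAM17. C57BL/6 mice carry a *Cxcl11* defect and make no functional CXCL11 protein, so *Cxcl11* UMIs are a measure of transcript only.

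*Cxcl9*, *Cxcl10* and *Cxcl11* lie in that order on chromosome 5 in the RefSeq annotation, which classes *Cxcl11* as a transcribed pseudogene. *Cxcl16* lies on chromosome 11, *Cxcr6* on chromosome 9 and *Cxcr3* on chromosome X. The 250 bases before the annotated start of the ligands with the most UMIs in the chromosome 5 group are shown because both genes were higher under anti-CD9 Ab in several cell types below. They are from RefSeq (GRCm38.p6) and run 5′ to 3′ on the minus strand, at chr5:92328080-92328329 for *Cxcl9* and chr5:92348890-92349139 for *Cxcl10*. Capitals mark matches to GAAANNGAA, a short form of the interferon-stimulated response element.
Cxcl9: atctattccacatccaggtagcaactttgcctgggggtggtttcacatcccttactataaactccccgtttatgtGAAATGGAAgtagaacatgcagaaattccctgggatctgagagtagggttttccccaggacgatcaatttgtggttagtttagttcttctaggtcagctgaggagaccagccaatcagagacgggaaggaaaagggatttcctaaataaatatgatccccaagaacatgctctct
Cxcl10: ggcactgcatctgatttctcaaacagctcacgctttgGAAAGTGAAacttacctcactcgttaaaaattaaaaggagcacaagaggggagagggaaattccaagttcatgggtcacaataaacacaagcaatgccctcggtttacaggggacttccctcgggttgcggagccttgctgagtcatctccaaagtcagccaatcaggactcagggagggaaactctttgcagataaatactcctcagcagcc
The *Cxcl9* match spanned bases -175 to -167 and the *Cxcl10* match bases -213 to -205 before the start. A match on either strand was present in 8.56% of 32851 promoters of 300 bases (250 before and 50 after the start). The gamma-activated site TTCNNNGAA, present on either strand in 8.3% of those promoters, had no match in the windows of *Cxcl9*, *Cxcl10*, *Cxcr3* or *Cxcr6*, and GAAANNGAA had none in those of *Cxcr3* and *Cxcr6*. The matches are letters in a window and describe no binding.

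Filters on detected genes and mitochondrial UMIs kept 7467 of 12245 barcodes under control Ab and 9162 of 15173 under anti-CD9 Ab. The kept cells held 24940542 and 22664880 UMIs, with a median per cell of 1880 and 1419. The libraries shared 54 barcodes. Clusters were named from marker lists, and 17 of 26 clusters fell into 10 cell types. The named types and their cells under control Ab and anti-CD9 Ab were T cell-like (2798 and 972), microglia-like (1825 and 799), macrophage-like (279 and 1237), neutrophil-like (65 and 2609), dendritic cell-like (111 and 340), B cell-like (32 and 99), plasma cell-like (150 and 142), astrocyte-like (428 and 78), oligodendrocyte-like (305 and 94) and fibroblast or mural cell-like (68 and 16). The astrocyte-like, oligodendrocyte-like and fibroblast or mural cell-like clusters are not cells that the CD45 label would hold. The macrophage-like cluster, led by *F13a1*, *Lyz2* and *Arg1*, also carried 5 of 8 monocyte markers. Unnamed clusters are given by number, among them cluster 11, led by *Gzma*, *Nkg7* and *Cd8b1*, which carried both T cell and NK cell markers.

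Over all kept cells, the 4 ligands were higher and both receptors were lower under anti-CD9 Ab. Levels are counts of a gene per 1000000 UMIs of the cells in question (CPM). The ratio of anti-CD9 Ab over control Ab is on the log2 scale, with an exact 95% interval that covers counting error only, and with 1 library per group no test between antibodies was possible. *Cxcl10* stood at 86.5 CPM under control Ab and 1300.2 CPM under anti-CD9 Ab, which gives a log2 ratio of 3.91 (3.85 to 3.97). *Cxcl9* stood at 53.0 and 268 CPM (2.34, 2.25 to 2.43). *Cxcl11* was the rarest, at 1.64 CPM from 41 UMIs and 85.8 CPM from 1945 UMIs, and had the largest ratio of the 6 genes, 5.71 (5.26 to 6.19). *Cxcl16* stood at 90.1 and 230 CPM (1.35, 1.28 to 1.42). *Cxcr3* went the other way, from 53.9 to 17.6 CPM (-1.62, -1.78 to -1.46), and *Cxcr6* from 379 to 166 CPM (-1.19, -1.25 to -1.14). The direction was also that of all barcodes without any filter, where *Cxcl10* stood at 75.8 and 885 CPM, *Cxcl9* at 50.7 and 216 CPM, and *Cxcr6* at 431 and 218 CPM.

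Of the 15136 genes that reached 50 UMIs in all, 7.41% were at least 2-fold higher and 21.6% at least 2-fold lower under anti-CD9 Ab, with a median log2 ratio of -0.37. All 4 ligands were among the first, *Cxcl11* having reached 50 UMIs only through the anti-CD9 Ab library, and both receptors among the second. With median-ratio scaling the log2 ratio of *Cxcr6* was -0.82, which is less than 2-fold. The ratios over all cells mix cell types whose numbers differed greatly, as the neutrophil-like cells show. When each cell counted equally instead of each UMI, the log2 ratio was 4.67 for *Cxcl10*, 2.94 for *Cxcl9* and -2.11 for *Cxcr6*.

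**Figure D1:**
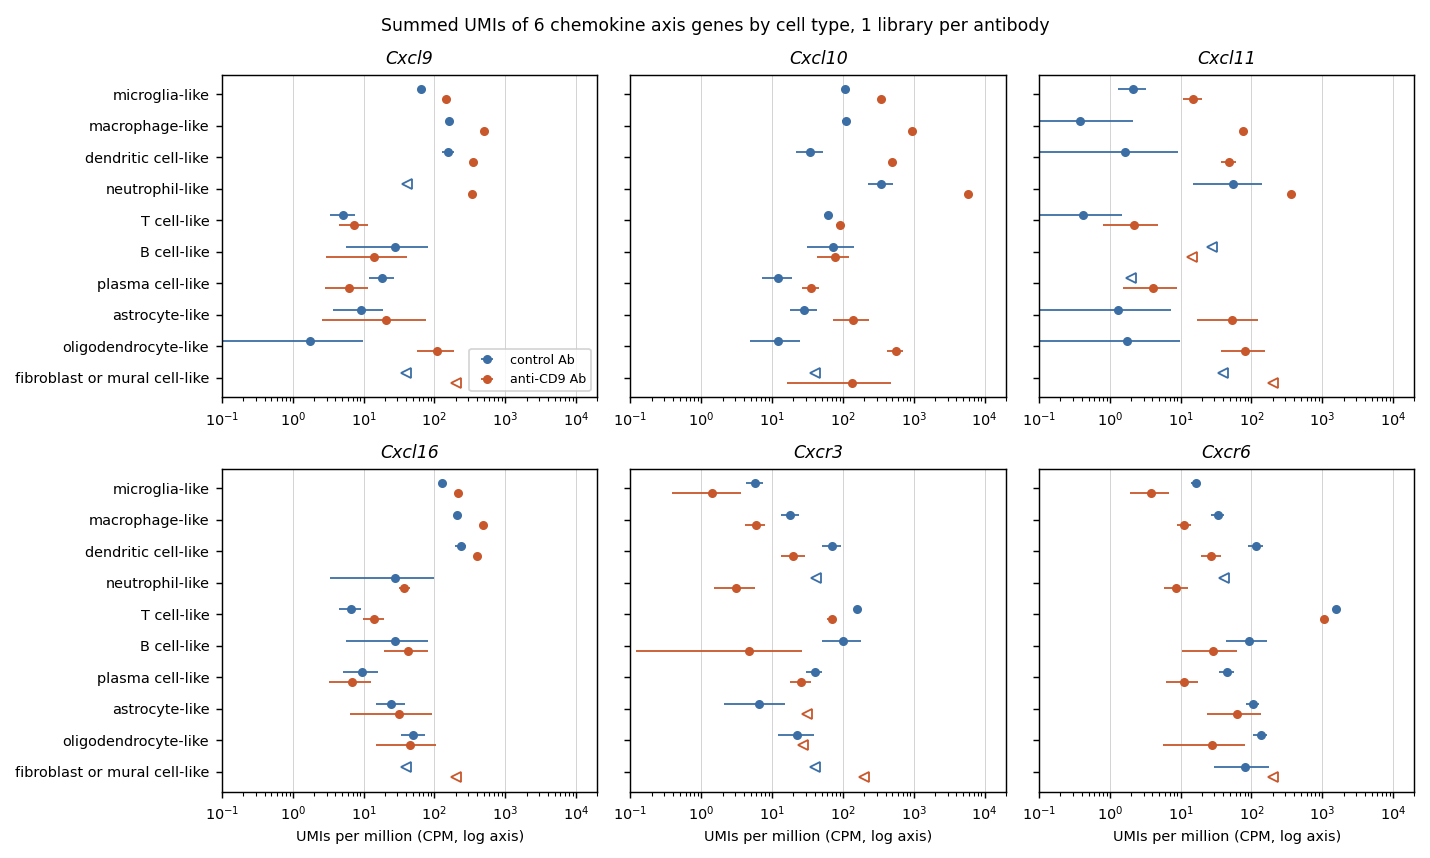
Level (CPM, log axis) of each of the 6 genes in the 10 named cell types, under control Ab and anti-CD9 Ab; bars are exact Poisson 95% intervals (counting error of 1 library), some of which run below the start of the axis, and triangles mark 0 UMIs, drawn at a floor of 3 counts. *Cxcl10* reached 5832 CPM in neutrophil-like cells under anti-CD9 Ab and *Cxcr6* 1559 CPM in the T cell-like class under control Ab.

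Microglia-like cells held the largest share of every ligand under control Ab. They had 46.1% of the *Cxcl9* UMIs, 46.2% of the *Cxcl10* UMIs and 53.9% of the *Cxcl16* UMIs of the control Ab library. With anti-CD9 Ab these shares were 6.79%, 3.29% and 11.7%, although the level of each of these ligands in CPM was higher in microglia-like cells. Microglia-like *Cxcl9* stood at 64.9 CPM under control Ab and 145 CPM under anti-CD9 Ab (log2 ratio 1.16, 0.98 to 1.34). Microglia-like *Cxcl10* stood at 106 and 340 CPM (1.68, 1.55 to 1.81), and *Cxcl16* at 129 and 214 CPM (0.73, 0.59 to 0.87). *Cxcl11* was near the floor in control microglia-like cells, with 20 UMIs, and had 42 UMIs under anti-CD9 Ab (2.13 and 14.8 CPM).

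Microglia-like cells came from 2 clusters, and the ligands were higher under anti-CD9 Ab in both. Cluster 5, led by the disease-associated microglial genes *Lpl*, *Cst7* and *Igf1*, had more *Cxcl9*, *Cxcl10* and *Cxcl16* than cluster 1 in both libraries. In cluster 5, *Cxcl10* stood at 160 and 680 CPM (2.09) and *Cxcl9* at 92.0 and 217 CPM (1.24). In cluster 1, *Cxcl10* stood at 37.7 and 168 CPM (2.16) and *Cxcl9* at 30.7 and 109 CPM (1.83). The control Ab *Cxcl10* level of cluster 1 lay below that of T cell-like cells (61.2 and 91.6 CPM), which serve as a background below. *Cxcl16* stood at 166 and 241 CPM in cluster 5 (0.53) and at 81.7 and 201 CPM in cluster 1 (1.30). The split of microglia-like cells between them differed, with 792 cells in cluster 5 against 1033 in cluster 1 under control Ab and 245 against 554 under anti-CD9 Ab. Without integration of the libraries, the microglia-like class held 2009 and 185 cells, and its log2 ratios were 0.53 for *Cxcl9* and 1.06 for *Cxcl10*. An unnamed cluster of that setting whose nearest type was microglia held 115 and 635 cells, so the class was not the same set of cells.

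A UMI of a given ligand was detected in a minority of microglia-like cells. After each cell was thinned to 1000 UMIs, 3.19% of microglia-like cells under control Ab and 6.76% under anti-CD9 Ab had a *Cxcl9* UMI. The *Cxcl16* shares were 9.58% and 17.5%, and 34.5% and 42.8% without thinning. A draw of 1000 UMIs misses many cells that hold a gene at these levels, so the shares do not count the cells that expressed it. For *Cxcl10* the shares were 3.25% (2.48 to 4.18) and 11.1% (8.98 to 13.5). T cell-like cells, which are not known as a main source of these ligands, give the background: 0.447% and 0.557% for *Cxcl9*, 0.65% and 1.22% for *Cxcl16*, and 2.4% (1.83 to 3.08) and 4.34% (3.11 to 5.89) for *Cxcl10*. The control Ab share of microglia-like cells with *Cxcl10* therefore overlapped that of T cell-like cells within its interval, while the anti-CD9 Ab share lay above it. Without thinning, the *Cxcl10* shares of microglia-like cells were 7.29% and 18.6%, at median depths of 3074 and 3397 UMIs, and those of T cell-like cells had median depths of 1555 and 2274 UMIs. The 10 cells with most *Cxcl10* held 42.1% of the microglia-like *Cxcl10* UMIs under control Ab and 35.7% under anti-CD9 Ab.

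Among microglia-like genes with at least 50 UMIs, 3.4% were at least 2-fold higher and 4.25% at least 2-fold lower under anti-CD9 Ab. All 6 genes reached 50 UMIs there, *Cxcl11* only over both libraries together, with 20 and 42 UMIs. *Cxcl9*, *Cxcl10* and *Cxcl11* were at least 2-fold higher, and *Cxcl16* was not. The interval of *Cxcl9* began just under 2-fold (0.98), and its log2 ratio without integration was 0.53. The receptors were at least 2-fold lower, with 54 and 4 *Cxcr3* UMIs and 153 and 11 *Cxcr6* UMIs. Both receptors reached 50 UMIs only through the control Ab library, and were seen in few microglia-like cells, as given with the receptors. The control Ab microglia-like cells with *Cxcr3* had a median of 14407 UMIs, against 2986 in the rest.

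Macrophage-like cells carried all 4 ligands and held more of *Cxcl9* and *Cxcl16* than any other type under anti-CD9 Ab. Their share of the library's *Cxcl9* UMIs was 32.3% under control Ab and 56.4% under anti-CD9 Ab, and that of *Cxcl16* was 24.4% and 62.9%. Their level of *Cxcl9* was 163 CPM under control Ab and 501 CPM under anti-CD9 Ab (1.62, 1.48 to 1.77). *Cxcl16* stood at 209 and 479 CPM (1.19, 1.06 to 1.33). *Cxcl10* stood at 109 and 932 CPM (3.09, 2.92 to 3.27), and *Cxcl11* at 1 and 513 UMIs (7.62, 5.13 to 12.9), so the ratio of *Cxcl11* rested on a single control UMI. The log2 ratio of *Cxcl10* was 2.14 with up to 5% mitochondrial UMIs allowed and 1.15 when each cell was typed by its own markers instead of its cluster. In both of these settings monocyte-like cells were a class of their own, with 74 and 1354 cells and with 60 and 838 cells, so the macrophage-like class was not the same set of cells.

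*Cxcl16* was the ligand found in most macrophage-like cells. It had a UMI in 71.7% of those cells under control Ab and 80.4% under anti-CD9 Ab, and in 20.9% and 37.1% after thinning. *Cxcl9* was in 7.22% and 17.4% of thinned macrophage-like cells, and *Cxcl10* in 7.22% and 17.6%. *Cxcl10* was concentrated in few cells, since the top 10 cells held 74.9% of the macrophage-like *Cxcl10* UMIs under control Ab. With anti-CD9 Ab, where there were 1237 such cells against 279, the top 10 held 18.3%. Among macrophage-like genes with at least 50 UMIs, 6.87% were at least 2-fold higher and 10.9% at least 2-fold lower. The 4 ligands were among the higher genes, *Cxcl11* having passed only through the anti-CD9 Ab library, and both receptors among the lower. *Cxcr3* stood at 17.9 and 5.85 CPM and passed only over both libraries together, with 47 and 40 UMIs. The control Ab cells with *Cxcr3* had a median of 14557.5 UMIs, against 6379 in the rest, and 17.1% of the cluster's cells were predicted doublets. *Cxcl16* was just under 2-fold without integration (0.97) and with cells typed by their own markers (0.98).

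**Figure D2:**
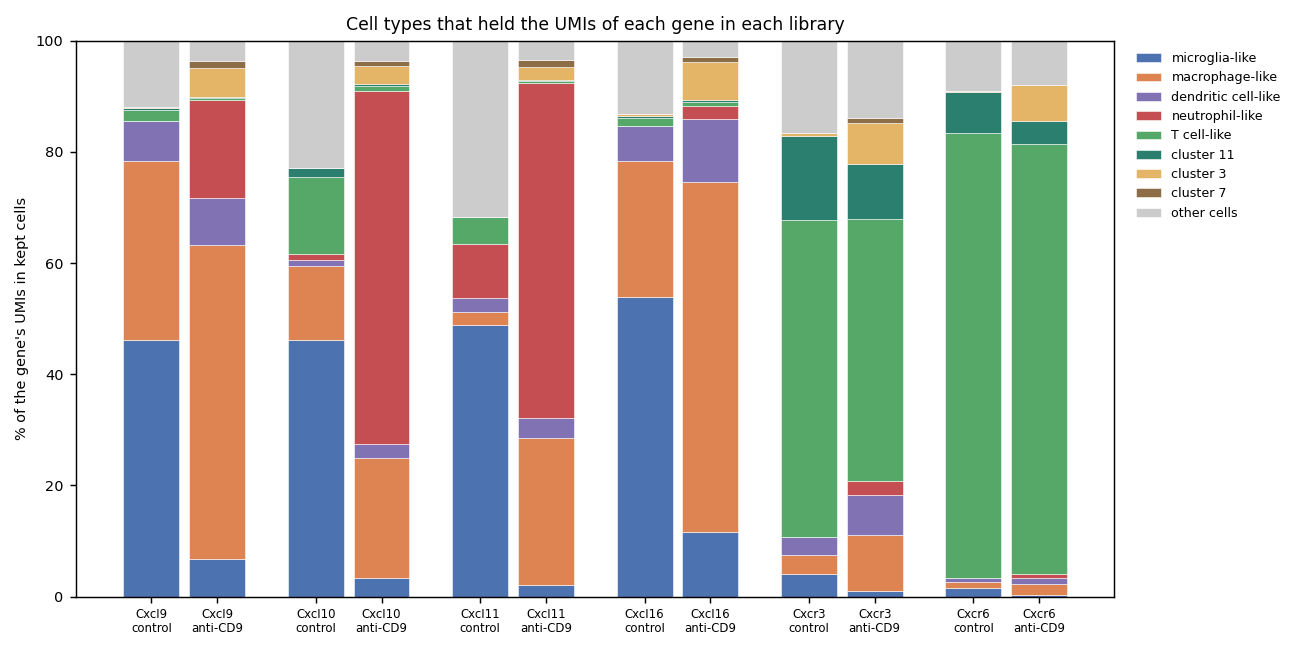
Share (percent) of each library's UMIs of each of the 4 ligands and 2 receptors held by each of 5 cell types, clusters 11, 3 and 7, and all other cells (stacked bars), control Ab beside anti-CD9 Ab. Microglia-like cells held 46.2% of *Cxcl10* under control Ab and 3.29% under anti-CD9 Ab, where neutrophil-like cells held 63.7%, while T cell-like cells held 80.2% and 77.3% of *Cxcr6*.

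Neutrophil-like cells held 63.7% of all *Cxcl10* UMIs and 60.4% of all *Cxcl11* UMIs under anti-CD9 Ab. With control Ab they held 1.16% and 9.76%, from 65 cells. Neutrophils are short-lived granulocytes that enter tissue early in inflammation. Their *Cxcl10* level was 346 CPM under control Ab, from 25 UMIs, and 5832 CPM under anti-CD9 Ab, from 18762 UMIs (4.07, 3.51 to 4.70). The control Ab UMIs lay in 5 cells and those of anti-CD9 Ab in 1062 cells. *Cxcl11* stood at 55.4 CPM from 4 UMIs in 1 cell and 365 CPM from 1174 UMIs in 417 cells (2.72, 1.36 to 4.60). *Cxcl9* had 0 and 1077 UMIs, at least 6.54-fold higher under anti-CD9 Ab by the lower end of the interval. *Cxcl16*, whose levels were higher in macrophage-like and dendritic cell-like cells, had 2 and 121 UMIs (27.7 and 37.6 CPM), and the interval of its ratio spanned no difference (0.44, -1.44 to 3.50).

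The neutrophil-like cells came from 3 clusters that the libraries filled unequally, and their *Cxcl10* levels differed between clusters. Cluster 4 held 34 of the control Ab cells and 1060 of the anti-CD9 Ab cells, and its *Cxcl10* level was 646 CPM under control Ab and 827 CPM under anti-CD9 Ab (0.36, -0.29 to 1.10). Cluster 6 held 5 and 960 cells and reached 9811 CPM of *Cxcl10* under anti-CD9 Ab, with 44.7% of the library's *Cxcl10* UMIs. Its control Ab level was 1325 CPM, from 6 UMIs in 1 cell (2.89, 1.77 to 4.34). Cluster 10 held 26 and 589 cells, and its *Cxcl10* level was 0 CPM and 6281 CPM, at least 65.2-fold higher by the lower end of the interval. In cluster 6, *Cxcl11* stood at 883 CPM under control Ab, from 4 UMIs, and 623 CPM under anti-CD9 Ab (-0.50, -1.86 to 1.38). These 4 were all the *Cxcl11* UMIs of neutrophil-like cells under control Ab. Cluster 6 also had 588 CPM of *Cxcl9* under anti-CD9 Ab, and its leading genes included the chemokines *Ccl4*, *Cxcl2* and *Ccl3*. The interval of the *Cxcl10* ratio included 0 in cluster 4 and not in clusters 6 and 10, and all 3 clusters held few control Ab cells.

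*Cxcl10* was spread over many neutrophil-like cells under anti-CD9 Ab. After thinning, 43.5% of these cells had a *Cxcl10* UMI, against 17% with *Cxcl11* and 9.44% with *Cxcl9*. The top 10 cells held 6.34% of their *Cxcl10* UMIs, and the highest single cell had 144. With control Ab, 21 neutrophil-like cells were deep enough to be thinned and 44 were not, and none of the 21 had a *Cxcl10* UMI. Thinning left out 840 neutrophil-like cells under anti-CD9 Ab. Among neutrophil-like genes with at least 50 UMIs, 19.6% were at least 2-fold higher and 20% at least 2-fold lower. *Cxcl9*, *Cxcl10* and *Cxcl11* were among the higher genes but reached 50 UMIs only through the anti-CD9 Ab library, *Cxcl16* was in neither group, and the receptors had fewer than 50 UMIs.

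Dendritic cell-like cells, which present antigen to T cells, carried *Cxcl9* and *Cxcl16* at levels near those of macrophage-like cells under control Ab. Their control Ab level of *Cxcl9* was 157 CPM (127 to 192) against 163 CPM (148 to 179) in macrophage-like cells, and the intervals overlapped. With anti-CD9 Ab, dendritic cell-like *Cxcl9* was 356 CPM (1.18, 0.86 to 1.51). *Cxcl10* stood at 34.8 and 495 CPM (3.83, 3.21 to 4.53), and *Cxcl16* at 235 and 406 CPM (0.79, 0.52 to 1.06). The control Ab level of *Cxcl10* lay below the 61.2 CPM of T cell-like cells, used above as a background. *Cxcl11* had 1 and 69 UMIs. Among dendritic cell-like genes with at least 50 UMIs, 7.61% were at least 2-fold higher and 3.63% at least 2-fold lower. *Cxcl9*, *Cxcl10* and *Cxcl11* were among the higher and the 2 receptors among the lower, with *Cxcr3* at 42 and 29 UMIs and *Cxcr6* at 70 and 39 UMIs. Dendritic cell-like *Cxcl10* and *Cxcl11* reached 50 UMIs only through the anti-CD9 Ab library. *Cxcr6* reached 50 UMIs only through the control Ab library, and *Cxcr3* only over both libraries together.

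The libraries filled the clusters of dendritic cell-like cells unequally, and the ligand ratios differed between these clusters. Cluster 17, led by the cross-presenting dendritic cell genes *Xcr1*, *Wdfy4* and *Flt3*, held 95 and 184 cells. Its *Cxcl9* level was 173 CPM under control Ab and 206 CPM under anti-CD9 Ab (0.25), and its *Cxcl10* level was 38.2 and 211 CPM (2.46). Cluster 19, led by the migratory dendritic cell genes *Ccr7* and *Fscn1*, held 16 and 156 cells. In cluster 19, *Cxcl9* had 0 and 322 UMIs and *Cxcl10* had 0 and 520 UMIs. By the lower end of the interval these were at least 9.37-fold and 15.2-fold higher. *Cxcl16* was as high in cluster 19 with either antibody, at 677 and 691 CPM (0.03, -0.46 to 0.56), and this was its highest level in any named cluster.

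Ligand UMIs were also found in glial, B cell-like and unnamed clusters. The *Cxcl10* level of oligodendrocyte-like cells was 12.2 CPM under control Ab and 556 CPM under anti-CD9 Ab, but 59 of the 61 UMIs under anti-CD9 Ab lay in 1 cell. Astrocyte-like *Cxcl10* stood at 28.6 and 137 CPM (2.26). B cell-like *Cxcl10* stood at 73.2 and 76.1 CPM. Cluster 3, led by *Arg1*, *Cxcl13* and *Hmox1*, held 33 and 1258 cells of low depth. In cluster 3, *Cxcl16* stood at 76.8 and 252 CPM (1.71), and under anti-CD9 Ab it had 230 CPM of *Cxcl9* and 700 CPM of *Cxcl10*, the latter from 983 UMIs against 968 in microglia-like cells. Cluster 22, of cycling cells, had 52.5 and 424 CPM of *Cxcl9* (3.01) and 63.5 and 411 CPM of *Cxcl10* (2.70). Clusters 18 and 25 held 96.2% and 98.5% predicted doublets, and leaving out clusters 3, 7, 18 and 25 gave a log2 ratio of 4.05 for *Cxcl10* over all cells.

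Among the named myeloid types, the order of ligand levels differed by gene. With control Ab, *Cxcl16* was highest in dendritic cell-like cells (198 to 277 CPM) and macrophage-like cells (192 to 228 CPM), whose intervals overlapped, followed by microglia-like cells (122 to 136 CPM). With anti-CD9 Ab the order was macrophage-like (463 to 496 CPM), dendritic cell-like (374 to 440 CPM) and microglia-like (197 to 232 CPM), with no overlap. *Cxcl9* under anti-CD9 Ab was highest in macrophage-like cells, followed by dendritic cell-like cells (326 to 388 CPM) and neutrophil-like cells (315 to 355 CPM), whose intervals overlapped, and by microglia-like cells (132 to 160 CPM). For *Cxcl10* under control Ab, the highest level was that of neutrophil-like cells (224 to 511 CPM), but their 25 UMIs lay in 5 of 65 cells. Dendritic cell-like cells were lowest (34.8 CPM), while macrophage-like (97.2 to 123 CPM) and microglia-like cells (99.6 to 113 CPM) did not differ beyond counting error. The intervals take UMIs of the same cell as independent, so they do not settle the control Ab order of *Cxcl10*. With anti-CD9 Ab the order of *Cxcl10* was neutrophil-like, macrophage-like, dendritic cell-like and microglia-like cells.

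The CXCR3 ligands were often found in the same cell. In neutrophil-like cells under anti-CD9 Ab, 389 of the 417 cells with a *Cxcl11* UMI (93.3%) also had a *Cxcl10* UMI, which was in 1062 of all 2609. In macrophage-like cells the count was 125 of 146 (85.6%), with *Cxcl10* in 353 of all 1237. Of the 236 neutrophil-like cells with *Cxcl9*, 69.1% had *Cxcl10*, against 37.9% of those without. Within cluster 6, which held 141 of these 236 cells, the shares were closer, at 79.4% and 62.3%. In macrophage-like cells under anti-CD9 Ab, *Cxcl10* was in 47.2% of cells with *Cxcl9* and 21.6% of cells without, at median depths of 5084 and 5191.5 UMIs. With control Ab these shares were 38.3% and 8.62%, at median depths of 9547 and 6429 UMIs. Overlap in dendritic cell-like cells under anti-CD9 Ab was 48.9% of cells with *Cxcl9* against 19.2% of cells without.

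Both receptors were carried mainly by T cell-like cells, and both were lower there under anti-CD9 Ab. T cell-like cells held 80.2% of the *Cxcr6* UMIs under control Ab and 77.3% under anti-CD9 Ab. They held 57.1% and 47.0% of the *Cxcr3* UMIs. T cell-like *Cxcr6* stood at 1559 CPM from 7574 UMIs and 1073 CPM from 2904 UMIs (-0.54, -0.60 to -0.48). T cell-like *Cxcr3* stood at 158 CPM from 768 UMIs and 69.1 CPM from 187 UMIs (-1.19, -1.43 to -0.96). *Cxcr6* was therefore less than 2-fold lower, and *Cxcr3* more than 2-fold lower with an interval that reached below 2-fold. The log2 ratio of T cell-like *Cxcr3* was -0.95 with up to 5% mitochondrial UMIs and -0.81 as the mean over cells, both under 2-fold.

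The shares of T cell-like cells with a receptor UMI went the same way. After thinning, 69.1% under control Ab and 57.6% under anti-CD9 Ab had *Cxcr6*, and 12.4% and 7.13% had *Cxcr3*. Without thinning the *Cxcr6* shares were 79.6% and 75.1%, although the anti-CD9 Ab cells were deeper, and the *Cxcr3* shares were 19.7% and 13.7%. Microglia-like cells, which should lack these receptors, had *Cxcr6* in 0.896% and 0.255% and *Cxcr3* in 0.56% and 0% of thinned cells. Oligodendrocyte-like cells, at median depths of 1025 and 848 UMIs, had *Cxcr6* in 10.8% and 0%. Oligodendrocyte-like cells had *Cxcr3* in 0.637% and 0%. The *Cxcr6* shares of T cell-like cells lay above both backgrounds. Under anti-CD9 Ab, 32 oligodendrocyte-like cells could be thinned, and the interval of their *Cxcr3* share reached 10.9%, above the 7.13% of T cell-like cells. Thinning left out 337 and 74 T cell-like cells.

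Among T cell-like genes with at least 50 UMIs, 3.24% were at least 2-fold higher and 2.56% at least 2-fold lower, with a median log2 ratio of -0.09. *Cxcr3* was among the lower genes and *Cxcr6* was not. Of the ligands, *Cxcl10* and *Cxcl16* reached 50 UMIs in T cell-like cells, *Cxcl16* with 32 and 38 UMIs (1.09) and *Cxcl10* with 297 and 248 UMIs (0.58, 0.33 to 0.83). *Cxcl16* was among the higher genes, at a level of 14.0 CPM under anti-CD9 Ab against 214 CPM in microglia-like cells.

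The T cell-like cells were of 4 clusters, and the level of each receptor spanned a wider range over the clusters than between antibodies. Cluster 0 had the most *Cxcr3*, at 258 CPM under control Ab and 127 CPM under anti-CD9 Ab (-1.02), and 997 and 883 CPM of *Cxcr6* (-0.18). Clusters 8 and 9 carried the gamma-delta T cell receptor gene *Trdc* and had the most *Cxcr6*. Cluster 8, which also had the cytokine gene *Il17a* among its leading genes, stood at 2778 and 1825 CPM of *Cxcr6* (-0.61) and 45.8 and 22.0 CPM of *Cxcr3* (-1.06). Cluster 9, led by *Scart1* and *Trdc*, stood at 2081 and 1436 CPM of *Cxcr6* (-0.54) and 23.5 and 15.1 CPM of *Cxcr3* (-0.64). Cluster 21, of cycling cells with *Ube2c* and *Birc5*, was the exception for *Cxcr6*, at 444 and 615 CPM (0.47, 0.12 to 0.83), and had 102 and 37.6 CPM of *Cxcr3*. Clusters 8 and 9 made up 24.4% and 22.7% of T cell-like cells under control Ab and 16% and 18.9% under anti-CD9 Ab, and cluster 21 made up 1.32% and 9.05%.

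Gates on single genes within the T cell-like cells separated the receptors by T cell lineage. A gate is the set of cells with a UMI of a lineage gene (*Trdc* for gamma-delta, *Cd4*, *Cd8a* or *Cd8b1*, *Foxp3* for regulatory cells) and none of the other lineages, except that regulatory cells may hold *Cd4*. Cells of the gamma-delta gate made up 46.1% and 39.2% of T cell-like cells, those of the CD4 gate 14.7% and 19.7%, those of the regulatory gate (*Foxp3*) 2.79% and 3.91%, and those of the CD8 gate 0.679% and 1.75%. A gate depends on depth, and T cell-like cells were deeper under anti-CD9 Ab, so these shares do not measure subset size alone. Gamma-delta cells had the most *Cxcr6*, at 2340 and 1381 CPM (-0.76, -0.84 to -0.68), and little *Cxcr3*, at 41.4 and 16.7 CPM (-1.31, -2.07 to -0.61). CD4 cells had 228 and 73.5 CPM of *Cxcr3* (-1.64, -2.17 to -1.14), and their *Cxcr6* levels of 985 and 891 CPM did not differ beyond counting error (-0.14, -0.31 to 0.02). Regulatory cells had the highest *Cxcr3* of the T cell-like gates, at 309 CPM under control Ab and 173 CPM under anti-CD9 Ab (-0.84, -1.70 to -0.04), and the lowest *Cxcr6*, at 404 and 144 CPM (-1.49, -2.40 to -0.67). These cells numbered 78 and 38.

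The lower share of cells with a receptor depended on the gate. In the gamma-delta gate, 94.8% and 94.0% of cells had a *Cxcr6* UMI without thinning, and 86.5% and 70.6% after it, the anti-CD9 Ab cells being deeper (median 1517 and 2784 UMIs). In the CD4 gate the thinned *Cxcr6* shares were 56.3% and 56.7%, and the thinned *Cxcr3* shares were 18.7% and 7.49%. In the regulatory gate *Cxcr3* was in 24.6% and 13.9% of thinned cells. *Cxcr3* was lower under anti-CD9 Ab in the gamma-delta, CD4 and regulatory gates and in the ungated cells (249 and 137 CPM, -0.86), with each interval below 0, whereas the interval of *Cxcr6* reached 0 in the CD4 gate.

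**Figure D3:**
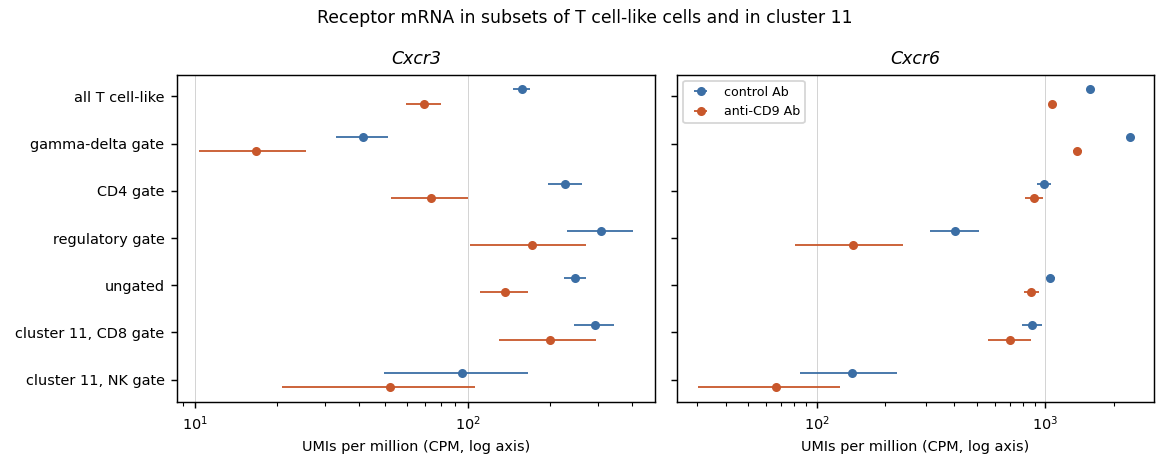
Level (CPM, log axis) of *Cxcr3* and *Cxcr6* in all T cell-like cells, in their gates except the CD8 gate, and in the CD8 and NK gates of cluster 11, control Ab beside anti-CD9 Ab, with exact Poisson 95% intervals. The gamma-delta gate had the most *Cxcr6* (2340 and 1381 CPM) and the regulatory gate 309 and 173 CPM of *Cxcr3*.

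Cluster 11, with cytotoxic genes, was the other receptor-bearing group. It held 15.1% and 10.1% of the *Cxcr3* UMIs and 7.30% and 4.18% of the *Cxcr6* UMIs. Its *Cxcr3* level was 227 CPM under control Ab and 107 CPM under anti-CD9 Ab (-1.09, -1.62 to -0.59), and its *Cxcr6* level was 770 and 418 CPM (-0.88). Within it, cells of the CD8 gate, 218 and 47 in number, had 293 and 201 CPM of *Cxcr3* (-0.54, -1.22 to 0.08) and 874 and 699 CPM of *Cxcr6* (-0.32, -0.67 to 0.01), and both intervals included 0. CD8 cells with a *Cxcr3* UMI made up 21.6% and 22.2% after thinning. Cells of the NK gate, with *Ncr1* or *Klrb1c* and no UMI of a CD3 or CD8 gene, numbered 66 and 59 and had 12 and 7 *Cxcr3* UMIs and 18 and 9 *Cxcr6* UMIs. The gates split the cluster differently in the libraries, with fewer CD8 cells per NK cell under anti-CD9 Ab.

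Cluster 11 also had *Cxcl10*, at 39.1 and 234 CPM (2.59), but from few cells. One cell had 33 of the 88 UMIs under anti-CD9 Ab, and the top 10 cells held 93.2%. Among cluster 11 genes with at least 50 UMIs, 3.56% were at least 2-fold higher and 2.87% at least 2-fold lower. *Cxcl10* was among the higher, *Cxcr3* among the lower, and *Cxcr6* in neither. *Cxcl10* reached 50 UMIs there only through the anti-CD9 Ab library (35 and 88 UMIs), and *Cxcr3* only through the control Ab library (203 and 40 UMIs).

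Most T cell-like cells with *Cxcr3* also had *Cxcr6*, at a lower share than the T cell-like cells without *Cxcr3*, and 17.4% and 13.2% of T cell-like cells with *Cxcr6* had *Cxcr3*. In T cell-like cells under control Ab, 70.2% of cells with a *Cxcr3* UMI had a *Cxcr6* UMI, against 81.8% of the rest, and under anti-CD9 Ab 72.2% against 75.6%. In cluster 11 the order was the opposite, with 73.8% against 57.6% under control Ab and 63.3% against 35.1% under anti-CD9 Ab.

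In the other named types given here, receptor levels were below those of T cell-like cells of the same library. *Cxcr6* in macrophage-like cells stood at 33.2 and 11.3 CPM (-1.56) and in dendritic cell-like cells at 116 and 26.9 CPM (-2.11). *Cxcr3* in dendritic cell-like cells stood at 69.5 and 19.98 CPM (-1.80), with a UMI in 9.17% and 2.01% of thinned cells. These levels lay above the 5.74 and 1.41 CPM of *Cxcr3* in microglia-like cells, used above as a background. *Cxcr3* in plasma cell-like cells, a known site of the receptor, stood at 39.8 and 25.4 CPM (-0.65), and *Cxcr6* there at 44.5 and 11 CPM (-2.02). Oligodendrocyte-like cells, used above as a background, had *Cxcr6* at 134 and 27.3 CPM (-2.30), and astrocyte-like cells at 104 and 63.2 CPM (-0.72). The *Cxcr6* levels of macrophage-like, dendritic cell-like and plasma cell-like cells were no higher than that background in either library. Over all kept cells *Cxcr6* made up 379 CPM of the control Ab library and 166 CPM of the other. The part of free RNA in the levels of these types was not tested.

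Set against each other, ligand UMIs per receptor UMI were higher under anti-CD9 Ab for both axes. *Cxcl9*, *Cxcl10* and *Cxcl11* together gave 2.62 UMIs per *Cxcr3* UMI under control Ab (2.46 to 2.79) and 94.2 under anti-CD9 Ab (85.3 to 104). *Cxcl16* gave 0.238 UMIs per *Cxcr6* UMI (0.227 to 0.249) and 1.39 (1.33 to 1.45). These are ratios of captured molecules of different genes, so they are set between libraries and not against 1. By cells thinned to 1000 UMIs, 4.26% and 26.6% had a CXCR3 ligand and 6.91% and 1.84% had *Cxcr3*, or 0.617 and 14.5 ligand cells per receptor cell. *Cxcl16* was in 5.25% and 13.4% of cells and *Cxcr6* in 32.7% and 10.5%, or 0.16 and 1.27. A CXCR3 ligand and *Cxcr3* were in the same thinned cell in 12 and 13 cells, and *Cxcl16* and *Cxcr6* in 27 and 21 cells, of 6384 and 6534 thinned. Without thinning, 79 of 952 control Ab cells with *Cxcr3* had a CXCR3 ligand, which was in 603 of all 7467. Low overlap also follows from sparse detection, and whether sources and receptor-bearing cells were separate was not tested.

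The cell types of the libraries differed so much that the ratios over all cells were also computed at a fixed composition. With 16 types or clusters of at least 20 cells in both libraries, each weighted by its share of the control Ab UMIs, the log2 ratio of *Cxcl10* was 1.98, against 3.93 as observed in the same units. With control Ab levels and the anti-CD9 Ab shares of UMIs instead, it was 0.47. Each named type was 1 unit, so a shift of cells between clusters of a type counted as a difference in level. Neutrophil-like cells had such a shift, with 5 of 65 and 960 of 2609 cells in cluster 6. Weighted instead by the shares of the anti-CD9 Ab UMIs, the log2 ratio of levels was 3.46 for *Cxcl10*, 1.87 for *Cxcl9*, 3.29 for *Cxcl11*, 1.07 for *Cxcl16*, -1.35 for *Cxcr3* and -0.61 for *Cxcr6*, so its size depended on which composition was held. At the control Ab composition, the values for *Cxcl9* were 1.46, against 2.39 observed and 0.52 from composition alone, and for *Cxcl16* they were 0.86, 1.41 and 0.34. *Cxcl11* gave 3.78, 5.73 and 2.44.

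The receptors divided differently. *Cxcr6* gave -0.53 at the control Ab composition and -0.58 from composition alone, of -1.19 observed. *Cxcr3* gave -1.21 and -0.24, of -1.59 observed. The direction of all 6 genes was thus the same with either composition held. For *Cxcr6*, about as much of the difference lay in the shares of these units as in the levels within them.

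**Figure D4:**
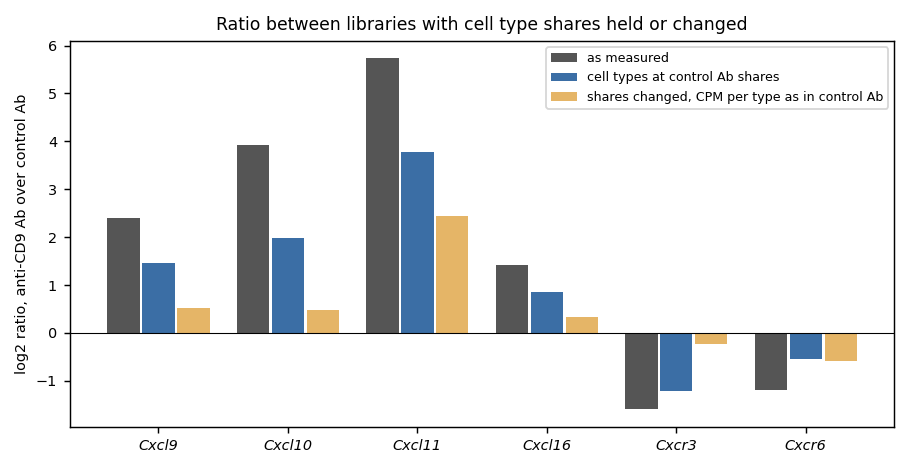
Log2 ratio of anti-CD9 Ab over control Ab for the 6 genes over 16 cell types or clusters, as observed, with the control Ab composition, and from composition alone. Shifts between clusters of a named type count as level. For *Cxcl10* the values were 3.93, 1.98 and 0.47, and for *Cxcr6* -1.19, -0.53 and -0.58.

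Interferon-gamma, made by T cells and NK cells, is the main inducer of *Cxcl9* and, with type I interferons, of *Cxcl10*. A list of 24 genes of the interferon-gamma axis had more members past 2-fold in myeloid cells than in T cell-like cells. Of the genes with at least 50 UMIs, 15 of 23 in microglia-like cells were at least 2-fold higher and 0 lower, against 3.4% and 4.25% of all microglia-like genes, with a median log2 ratio of 1.32 against 0.01. In macrophage-like cells 13 of 23 were higher and 0 lower, against 6.87% and 10.9% of all genes (median 1.11 against -0.13), and in dendritic cell-like cells 11 of 22 and 0, against 7.61% and 3.63% (1.00 against -0.03). In neutrophil-like cells 12 of 20 were higher and 1 lower, against 19.6% and 20% of all genes. Neutrophil-like genes of this and the lists below reached 50 UMIs mainly through the anti-CD9 Ab library, with 2609 of these cells against 65. In the other types, a list gene low under control Ab could likewise pass only through the anti-CD9 Ab library. The shares of all genes used the same minimum, and the counts are a description. In T cell-like cells 0 of 24 were past 2-fold in either direction, against 3.24% higher and 2.56% lower, with a median of 0.05 against -0.09. In cluster 11, 3 of 20 were higher and 0 lower, against 3.56% and 2.87% (0.34 against -0.01). Over all kept cells 11 of 24 were higher and 0 lower, against 7.41% and 21.6% (0.84). The summed level of the list stood at 2672 and 4779 CPM in microglia-like cells, 2967 and 4838 CPM in macrophage-like cells, and 4647 and 4626 CPM in the T cell-like class.

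*Ifng* itself was in T cell-like cells at 84.0 CPM under control Ab and 164 CPM under anti-CD9 Ab (0.97, 0.77 to 1.16), and in cluster 11 at 80.4 and 152 CPM (0.92). *Irf1*, an interferon-induced transcription factor, stood at 89.6 and 215 CPM in microglia-like cells (1.27), 277 and 1118 CPM in neutrophil-like cells (2.01) and 154 and 155 CPM in the T cell-like class. The receptor chains did not follow. *Ifngr1* stood at 429 and 408 CPM in microglia-like cells (-0.07) and 274 and 221 CPM in macrophage-like cells (-0.31), and *Ifngr2* at 23.9 and 13.3 CPM in the T cell-like class (-0.85).

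Guanylate-binding proteins, interferon-induced GTPases of cell defence, had the largest ratio of the list in microglia-like, dendritic cell-like and neutrophil-like cells. *Gbp5* stood at 15.1 and 130 CPM in microglia-like cells (3.10), 17.5 and 157 CPM in macrophage-like cells (3.16), 11.6 and 148 CPM in dendritic cell-like cells (3.68) and 41.5 and 1144 CPM in neutrophil-like cells (4.78). In macrophage-like cells the GTPase gene *Tgtp2* had a larger ratio (3.62). Next to *Gbp5* stood *Gbp4* in microglia-like cells (4.68 and 33 CPM, 2.82) and *Gbp2* in dendritic cell-like cells (33.1 and 289 CPM, 3.12). In T cell-like cells *Gbp2* stood at 52.7 and 90.5 CPM (0.78). *Irf8*, a factor of myeloid identity, was the lowest of the list in the 4 named myeloid types, at 516 and 453 CPM in microglia-like cells (-0.19), 451 and 240 CPM in macrophage-like cells (-0.91), 1011 and 669 CPM in dendritic cell-like cells (-0.60) and 83.0 and 18.3 CPM in neutrophil-like cells (-2.18). In cluster 11 *Irf8* went from 104 to 274 CPM (1.40). The control Ab levels of *Gbp5* and *Irf8* in neutrophil-like cells rest on few UMIs, since 4 *Cxcl11* UMIs there gave 55.4 CPM. That of *Gbp5* in dendritic cell-like cells does too, since 1 *Cxcl11* UMI there gave 1.66 CPM.

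Type I interferon-stimulated genes, a list of 14, also had members past 2-fold in each myeloid type, to be read against the same shares of all genes. Of those with at least 50 UMIs, 8 of 14 were at least 2-fold higher in microglia-like cells (median 1.30), 8 of 14 in macrophage-like cells (1.31), 5 of 13 in dendritic cell-like cells (0.40) and 4 of 13 in neutrophil-like cells (0.84), with 0 lower in each. The shares of all genes were 3.4%, 6.87%, 7.61% and 19.6%, so the neutrophil-like count was the nearest to its background. In T cell-like cells 1 of 13 was higher and in cluster 11 2 of 11 (medians 0.11 and 0.02), against 3.24% and 3.56% of all genes, and over all kept cells 11 of 14 (1.57), against 7.41%. *Rsad2*, which encodes the antiviral protein viperin, stood at 17.9 and 94.9 CPM in microglia-like cells (2.41). *Ifit1* and *Isg15*, which block viral translation and tag proteins, had the largest ratios in macrophage-like cells (2.24 and 2.19). The T cell-like gene past 2-fold was *Ifitm3*, at 63.6 and 291 CPM (2.19), while *Ifit3* and *Ifit1* were lower there, at 79.3 and 39.9 CPM (-0.99) and 119 and 74.3 CPM (-0.68). *Irf9* was lowest or next to lowest in the 4 myeloid types, at 37.0 and 39.0 CPM in microglia-like cells (0.08).

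**Figure D5:**
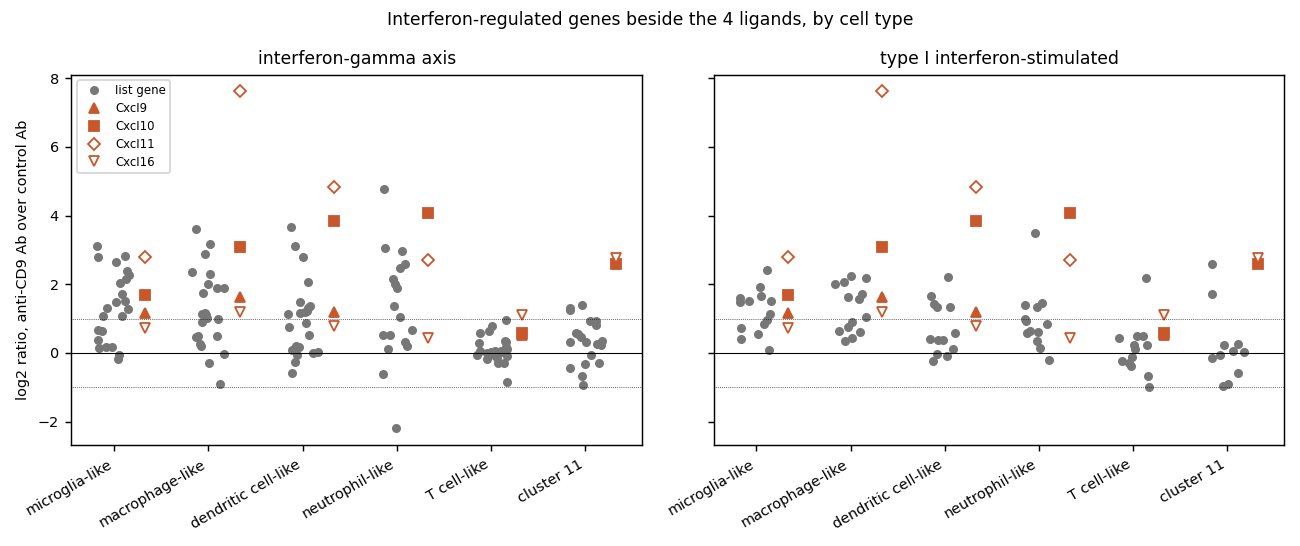
Log2 ratio of anti-CD9 Ab over control Ab for the genes of the interferon-gamma axis and type I interferon lists with at least 50 UMIs (grey points) and for the 4 ligands (orange symbols), by cell type; dotted lines mark 2-fold, and genes with 0 UMIs under control Ab are not drawn. The points of the interferon-gamma axis lie mostly above 0 in microglia-like cells (median 1.32) and around 0 in T cell-like cells (median 0.05).

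Genes that process these chemokines or pass on the receptor signal, a list of 14, were mostly within 2-fold. None of the counted genes was at least 2-fold higher in any of the 6 groups of cells or over all kept cells. Lower by at least 2-fold were 1 of 13 over all kept cells (median 0.25), 1 of 12 in microglia-like cells (0.17), 1 of 12 in macrophage-like cells (0.29), 3 of 11 in neutrophil-like cells, 0 of 11 in dendritic cell-like cells (0.09), 0 of 12 in T cell-like cells (0.10) and 0 of 11 in cluster 11 (0.07). In the same order, 21.6%, 4.25%, 10.9%, 20%, 3.63%, 2.56% and 2.87% of all genes were lower. *Ackr3*, the receptor that takes up CXCL11 and CXCL12 without signalling through G proteins, stood at 10.1 CPM from 95 UMIs and 3.51 CPM from 10 UMIs in microglia-like cells (-1.52), and at 6.94 and 1.41 CPM over all kept cells (-2.30). *Rgs1*, which dampens G protein signals of chemokine receptors, stood at 103 and 47.8 CPM in macrophage-like cells (-1.11) and 174 and 305 CPM in dendritic cell-like cells (0.81).

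In microglia-like and macrophage-like cells the proteases of this list differed by at most 0.40 on the log2 scale. *Adam10*, the constitutive sheddase of CXCL16, stood at 309 and 386 CPM in microglia-like cells (0.32) and 188 and 177 CPM in macrophage-like cells (-0.09). *Adam17*, the inducible one, stood at 205 and 248 CPM (0.28) and 191 and 252 CPM (0.40). *Dpp4*, which trims and inactivates CXCL9 to CXCL11, was highest in dendritic cell-like cells, at 263 and 320 CPM (0.28), and T cell-like *Dpp4* stood at 58.9 and 57.3 CPM (-0.04). In cluster 11 *Dpp4* stood at 92.7 and 48.0 CPM (-0.95).

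Genes of T cell homing and tissue residence, a list of 19, differed in both directions. In T cell-like cells 3 of 15 were at least 2-fold higher and 0 lower (median 0.02), and in cluster 11 2 of 13 were higher and 2 lower (0.49). The counts were 2 higher and 2 lower of 11 in microglia-like cells (-0.20), 6 and 2 of 13 in macrophage-like cells (0.65), 4 and 1 of 12 in dendritic cell-like cells (0.38), 4 and 0 of 8 in neutrophil-like cells, and 5 and 2 of 18 over all kept cells (0.33). The shares of all genes higher and lower were, for T cell-like cells, 3.24% and 2.56%, in cluster 11 3.56% and 2.87%, 3.4% and 4.25% in microglia-like, 6.87% and 10.9% in macrophage-like, 7.61% and 3.63% in dendritic cell-like and 19.6% and 20% in neutrophil-like cells, and 7.41% and 21.6% over all kept cells. Among the higher genes in T cell-like cells was the chemokine receptor *Cxcr4*, at 11.5 and 51.4 CPM (2.16). The lowest were the residence genes *Cd69*, at 233 and 143 CPM (-0.70), and *Itgae*, the integrin that binds E-cadherin, at 168 and 105 CPM (-0.68). *Tbx21*, the T-bet factor that activates *Cxcr3*, stood at 63.6 and 93.8 CPM in the T cell-like class (0.56) and 157 and 221 CPM in cluster 11 (0.49), whereas *Cxcr3* was lower in both.

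Across 19 combinations of cell type and library with at least 20 cells, the genes closest in pattern were found by Pearson's r of log2(CPM + 10). The points share libraries and depth, and r is a description. Closest to *Cxcl10* were *Cd274* (0.928), which encodes the checkpoint ligand PD-L1, *Slc16a3* (0.925) and *Rab20* (0.924). Closest to *Cxcl9* were *Csf2rb2* (0.907), *Gm46224* (0.862) and *B4galt5* (0.845), to *Cxcl11* *Arg2* (0.930), *Gm57366* (0.911) and *Tarm1* (0.908), and to *Cxcl16* *Ms4a6c* (0.917), *Slamf8* (0.907) and *Hsd3b7* (0.906). Closest to *Cxcr6* were the T cell genes *Thy1* (0.979), *Cd3e* (0.979) and *Cd3g* (0.967), and to *Cxcr3* *Xlr4b* (0.926), *Cd28* (0.916) and *Dnajc9* (0.907). Between the 6 genes, r was 0.885 for *Cxcl10* with *Cxcl11*, 0.822 for *Cxcl9* with *Cxcl16* and 0.706 for *Cxcr3* with *Cxcr6*. *Cd274* stood at 64.2 and 264 CPM in microglia-like cells (2.04), 95 and 378 CPM in macrophage-like cells (1.99) and 221 and 1744 CPM in neutrophil-like cells (2.98).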

How the data were processed

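Thalamic cells labelled CD45 positive were profiled by droplet single-cell RNA-seq in 1 control Ab and 1 anti-CD9 Ab library. The deposited values are raw counts of UMIs per gene and barcode. The submitters' processing notes name Cell Ranger 8.0.0 and GRCm39, whereas the methods name an earlier Cell Ranger and GRCm38 (mm10), so no coordinates of the counted genes were printed and the promoter sequences are from RefSeq GRCm38.p6. The 6 genes and all gene lists were chosen with earlier results of these data known, and members were named wherever they had at least 20 UMIs over both libraries. From each list the counts past 2-fold, the 2 highest and 2 lowest ratios and genes of direct role were to be named, and of these the main cell types are given in the text. Some genes that this rule would name are not reported here.

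Cells with 200 to 7500 genes and at most 2% mitochondrial UMIs were kept, as in the methods of the study. Libraries were scaled to 10000, integrated by anchors on 2000 variable genes without the 6 genes and the lists, and clustered by the Louvain method (30 components, resolution 0.8) in Seurat 5.3.0 (R 4.3.3). A cluster was named when at least 50% of a type's markers were enriched in it, a rule set after seeing the data, as were the NK gate, the gates in cluster 11 and the fixed-composition values. Predicted doublets (731 cells, 9.79%, with control Ab, and 1112 cells, 12.1%, with anti-CD9 Ab), scored against simulated doublets, were kept and left out in an alternative. UMIs were summed per type and library and given as CPM with exact Poisson 95% intervals. Ratios have exact conditional binomial intervals and shares Clopper-Pearson intervals, all for counting error only. Thinning drew 1000 UMIs per cell, leaving out 1083 and 2628 shallower cells. No test between antibodies was possible with 1 library each. Python 3.11.15, numpy 2.4.6, scipy 1.17.1 and pandas 2.3.3 were used. The summing and interval steps were tested on simulated data. Alternatives were the mitochondrial limit, doublets, the weighting of cells, the scaling, integration, the number of components and typing of single cells by markers.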

Additional observations from a re-analysis of the deposited data

Results flagged for a closer look

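The named types and the unnamed clusters were searched for ratios opposite in direction to that over all kept cells, with an interval that did not include 0. There were 3 such groups of cells. Clusters and gates within a named type were not searched, among them cluster 21 of the T cell-like cells, with its *Cxcr6* ratio of 0.47 (0.12 to 0.83). The difference between the 3 groups and the rest was not tested, and each value rests on 1 library per antibody. *Cxcl9* in plasma cell-like cells had a log2 ratio of -1.56 (-2.83 to -0.43), from 18.2 CPM and 27 UMIs with control Ab to 6.18 CPM and 9 UMIs with anti-CD9 Ab, and 25 of the 27 UMIs lay in 1 cell. *Cxcr6* in cluster 15 had a log2 ratio of 1.65 (0.83 to 2.40), from 50.8 to 159 CPM, with 65 and 19 UMIs; the cluster carried oligodendrocyte and astrocyte markers and 26.7% of its cells were predicted doublets. *Cxcl10* in cluster 23, led by *Spp1* and *Cst7*, had a log2 ratio of -1.34 (-1.90 to -0.82), from 1177 to 464 CPM in 63 and 39 cells, and 1 control Ab cell held 115 of the 193 UMIs.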

How the results depend on the processing

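The sign of the log2 ratio was kept in 81 of 81 values, over 13 results (*Cxcl11* was not among them), 7 alternatives and 1 more chosen after seeing the data, and 40 values lay within the main 95% interval. The others follow by setting. With up to 5% mitochondrial UMIs, all kept cells gave 2.09 for *Cxcl9*, 3.55 for *Cxcl10*, -1.33 for *Cxcr3* and -1.01 for *Cxcr6*, macrophage-like cells gave 1.79 for *Cxcl9* and 2.14 for *Cxcl10*, and T cell-like cells gave -0.95 for *Cxcr3*. Without predicted doublets, all cells gave 2.23 for *Cxcl9* and -1.26 for *Cxcr6*, microglia-like cells 1.42 for *Cxcl10* and macrophage-like cells 1.45 for *Cxcl9*. With the mean over cells, all cells gave 2.94, 4.67 and 1.58 for *Cxcl9*, *Cxcl10* and *Cxcl16*, -2.12 for *Cxcr3* and -2.11 for *Cxcr6*, microglia-like cells gave 1.44, 1.96 and 0.98 for the same 3 ligands, macrophage-like cells 1.79 for *Cxcl9* and T cell-like cells -0.81 for *Cxcr3*. With median-ratio scaling, all cells gave 2.71, 4.28 and 1.72 for the 3 ligands, -1.24 for *Cxcr3* and -0.82 for *Cxcr6*, macrophage-like cells 1.33 for *Cxcl16* and T cell-like cells -0.45 for *Cxcr6*.

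Without integration, microglia-like cells gave 0.53, 1.06 and 0.55 for *Cxcl9*, *Cxcl10* and *Cxcl16*, macrophage-like cells 1.78 for *Cxcl9* and 0.97 for *Cxcl16*, and T cell-like cells -0.62 for *Cxcr6*. With 20 components, *Cxcl10* gave 1.34 in microglia-like and 2.83 in macrophage-like cells. With cells typed by their own markers, microglia-like cells gave 1.48 for *Cxcl10* and macrophage-like cells 1.09, 1.15 and 0.98 for the 3 ligands. Leaving out clusters 3, 7, 18 and 25, a choice made after seeing the data, gave 4.05 for *Cxcl10* over all cells. With a minimum of 20 UMIs per gene in place of 50, the genes at least 2-fold higher and lower numbered 569 and 790 in microglia-like, 710 and 557 in dendritic cell-like, 1912 and 1946 in neutrophil-like, 485 and 542 in T cell-like cells and 361 and 495 in cluster 11, and 1590 were lower in macrophage-like cells. The lower minimum takes in more genes (12669 against 10899 in microglia-like cells), so these counts can only rise. As shares of the genes counted, they were 4.49% and 6.24% in microglia-like, 8.25% and 6.47% in dendritic cell-like and 24.8% and 25.3% in neutrophil-like cells. T cell-like cells had 4.23% and 4.73%, cluster 11 4.85% and 6.66%, and macrophage-like cells 13.9% lower. The cause of the shifts in log2 ratio was not tested. No paired analysis was possible because there was 1 library per antibody, and no replicate could be left out. Among the limits of depth and cell number were the neutrophil-like cells, with 65 control Ab cells at a median of 837 UMIs, and *Cxcl11*, with 41 UMIs in the control Ab library.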
